A study of Mus musculus with 12 samples.

Results

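The comparison is that of TRIM33 with WT mice within 6 of the 12 monocyte arrays of the series, 3 of each genotype, in which transcripts of dividing myeloid precursors were high. The arrays were chosen by their expression over all features, which separated them from the other 6 without use of genotype. Within them the difference between genotypes is described over the 22200 measured genes that do not lie on chromosome X or Y. All 12 arrays came from mice of the strain C57BL/6 LyzCre aged 6 to 8 weeks. LyzCre denotes Cre recombinase under control of a lysozyme gene, active in myeloid cells; the sources used here do not tell if WT mice carried it. By the source names and the series design, the cells were blood monocytes positive for CD11b and CD115 with high Ly6C, although the treatment field of the labels speaks of sorted CD4 T cells. From each sample 900 pg of total RNA was amplified and hybridised to a single-colour array. None of the 6 arrays is titled as a mix, whereas 4 of the other 6 are. Nothing in the labels ties an array to an animal of its own, so each p-value reflects spread among arrays that may be technical in part.

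TRIM33 belongs to a small family of chromatin-binding TRIM proteins and acts as a cofactor of the SMAD proteins that carry signals of the TGF-beta family. Monocytes with high Ly6C arise in bone marrow from dividing granulocyte-monocyte precursors, which store myeloperoxidase and neutrophil elastase in primary granules, and leave the blood for inflamed tissue. Interferon-stimulated genes, many of which share the response element bound by the STAT and IRF factors, form one of the main inducible programmes of these cells.

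The label of the arrays followed from the values that chose them, and no test is attached to it. Mpo, which encodes myeloperoxidase, read 10.9 to 11.5 on the log2 scale in the 6 arrays and 4.74 to 5.15 in the other 6. Elane, the elastase, read 10.3 to 10.8 against 3.82 to 5.56, and Mki67, a protein of dividing nuclei, 9.46 to 9.92 against 4.91 to 6.58. The sorted antigen was present, with Ly6c2 at 12.2 to 12.4, while Kit, a receptor of earlier progenitors, lay between 3.57 and 4.16, below the median gene at 4.26. Cd34, another progenitor antigen, read 6.66 to 7.21. None of the 3 marker genes separated the genotypes by the test: Mpo differed by 0.06 (SE 0.187), Elane by 0.21 (SE 0.138) and Mki67 by -0.04 (SE 0.151), all TRIM33 minus WT on the log2 scale. Array medians lay between 4.17 and 4.25 and correlations between the 6 arrays between 0.986 and 0.993. WT replicate 2 had the lowest mean correlation with the other 5, 0.988 against 0.989 to 0.991. Values by array are given below in the order of replicates 1, 2 and 3.

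Trim33 itself, the targeted gene, read 6.08, 6.19 and 6.09 on the TRIM33 arrays and 6.81, 7.05 and 6.88 on the WT arrays. Every TRIM33 array lay below every WT array. The log2 difference was -0.79 (SE 0.128), and it did not pass the adjusted threshold in these 6 arrays (limma, unadjusted p = 0.000107, Benjamini-Hochberg adjusted p = 0.227). By an exact two-sided permutation test p was 0.1, and 3 arrays against 3 cannot give less. With the spread estimated from all 12 arrays the same difference had an adjusted p of 0.0201 by limma. In the other 6 arrays the difference was also -0.79 (SE 0.108). The source names give the genotype as TRIM33 only, without saying how the gene was changed. The sources used here do not tell if the probes fall inside a changed part. The related family members did not pass the test: Trim66 differed by -0.06, Trim24 by -0.03 and Trim28 by 0.02.

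Within these arrays 3 of the 22200 genes were higher in TRIM33 at an adjusted p below 0.05, which is 0.0135% of those tested, and 0 were lower (0.0%, limma with Benjamini-Hochberg adjustment). At an unadjusted p below 0.05 there were 531 higher (2.39%) and 584 lower (2.63%). The TRIM33 and WT arrays did not overlap for 980 genes in the higher direction (4.41%) and 1296 in the lower (5.84%). In either direction 10.3% of genes did not overlap, and 5.02% had an unadjusted p below 0.05. Of the 20 ways to assign the genotypes to 6 arrays, 2 separate the groups fully. A share near 0.1 thus arises without any difference, and lack of overlap alone does not set a gene apart. Without TRIM33 replicate 1 the adjusted counts were 7 higher and 1 lower. Each of these shares over all 6 arrays is the background against which the counts of gene groups below are read. The median difference over all genes was -0.0171. Of all genes 45.8% were higher, from 43.0% of those below a mean level of 4 to 67.7% of those above 10, and counts of members higher are set against that share.

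The genes that rose were Apcdd1, Lyz1 and H2bc18. Apcdd1, a transmembrane protein that restrains Wnt signalling, read 7.37, 6.96 and 7.20 on the TRIM33 arrays and 4.70, 4.89 and 4.80 on the WT arrays. The WT values lie a little above the median gene at 4.26 and the TRIM33 values well above it, with no overlap between genotypes. The rise was 2.38 on the log2 scale (SE 0.144; limma, Benjamini-Hochberg adjusted p = 0.000385). Lyz1, a lysozyme that breaks bacterial cell walls, read 10.17, 10.28 and 9.72 on the TRIM33 arrays and 6.49, 6.98 and 5.48 on the WT arrays. The lowest TRIM33 array stood far above the highest WT array, and WT replicate 3 was the lowest of all. Lyz1 rose by 3.74 (SE 0.323; limma, adjusted p = 0.00453), the largest difference of the 22200 genes. Lyz1 has a near-identical neighbour, Lyz2, which is not analysed here, and the probes may not tell them apart. H2bc18, a replication-dependent histone H2B gene, read 9.99, 10.09 and 9.81 on the TRIM33 arrays and 8.43, 8.55 and 8.48 on the WT arrays. The arrays of each genotype lay within 0.3 of each other, which made H2bc18 pass with a rise of 1.48 (SE 0.131; limma, adjusted p = 0.00453). Its call was lost when the spread was shared over all 12 arrays (adjusted p = 0.443), and all 3 calls were lost in a linear model without moderation of the spread.

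**Figure D1:**
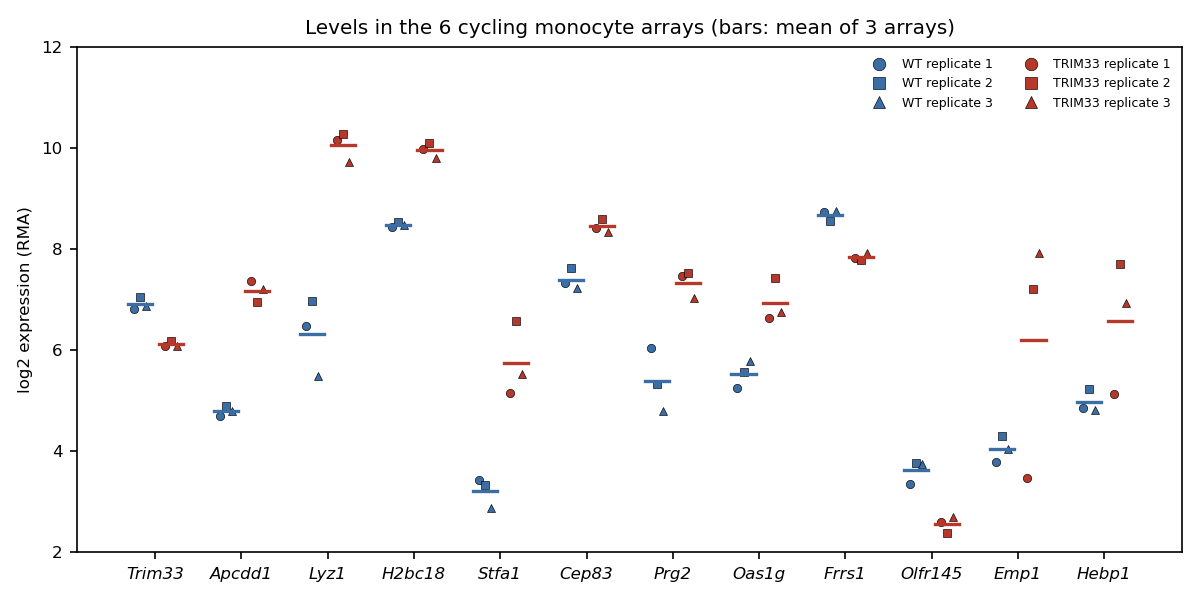
Log2 level (vertical axis) of 12 genes in each of the 6 arrays, WT blue and TRIM33 red, with bars for the mean of 3 arrays and a symbol for each replicate. Apcdd1, Lyz1 and H2bc18 separate the genotypes widely, Trim33 lies lower in TRIM33, and TRIM33 replicate 1 reads 3.47 for Emp1 and 5.12 for Hebp1, apart from the other TRIM33 arrays.

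The next genes in order of p did not pass. Stfa1, a stefin that inhibits cysteine proteases, read 5.15, 6.58 and 5.53 on the TRIM33 arrays and 3.43, 3.34 and 2.88 on the WT arrays. The groups did not overlap, yet the TRIM33 arrays spread widely, and the difference of 2.54 (SE 0.318) had an adjusted p of 0.0764 by limma. It passed when TRIM33 replicate 1 or 2 was left out, with adjusted p of 0.0295 and 0.033. Prg2, the major basic protein of eosinophil granules and of their precursors, read 7.46, 7.53 and 7.03 against 6.05, 5.32 and 4.81. All TRIM33 arrays were above all WT arrays, by 1.95 on average (SE 0.276, adjusted p = 0.126). Without WT replicate 1, the highest WT array, the adjusted p was 0.0179. Cep83, a component of the distal appendages of centrioles, read 8.43, 8.61 and 8.35 against 7.33, 7.63 and 7.22, a difference of 1.06 (SE 0.148, adjusted p = 0.126). The other members of the centriole appendage list lay on both sides of 0: 6 of its 19 members were higher and the median was -0.05. Oas1g, an interferon-inducible sensor of double-stranded RNA, read 6.64, 7.43 and 6.75 against 5.26, 5.57 and 5.78, a difference of 1.40 (SE 0.218, adjusted p = 0.189).

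Among the remaining genes of smallest p in the higher direction, Bcl2a1a, an anti-apoptotic BCL2 relative, read 5.93, 5.35 and 5.98 against 4.39, 4.94 and 4.15. Its TRIM33 arrays stood above its WT arrays by 1.26 (SE 0.228; limma, adjusted p = 0.43). Ccr1, a chemokine receptor of myeloid cells, read 7.53, 7.64 and 7.44 against 6.84, 6.94 and 6.65, a difference of 0.73 (SE 0.134, adjusted p = 0.43). Both groups were tight and did not overlap. Rmrp, the RNA of a nuclear and mitochondrial endoribonuclease, differed by 0.87 (SE 0.174), Atp1b3, a beta subunit of the sodium pump, by 0.68 (SE 0.13) and Nnt, a mitochondrial transhydrogenase, by 0.63 (SE 0.128). Tmem67, a protein of the ciliary transition zone, differed by 0.71 (SE 0.125), Mmel1, a membrane metalloprotease, by 0.80 (SE 0.152) and the microRNA gene Mir1901 by 0.67 (SE 0.136). None of these 6 passed, with adjusted p between 0.514 and 0.578 for 5 of them and 0.43 for Tmem67. Selenbp2, a selenium-binding protein, Slfn4, a schlafen gene of myeloid cells, and Fcgr4, an activating Fc receptor, differed by 1.20, 1.16 and 1.08 without overlap, with wider spread between arrays (adjusted p of 0.704, 0.716 and 0.909).

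In the lower direction no gene passed, and many of those with the smallest p were dim. Olfr145, an odorant receptor gene, read 2.60, 2.39 and 2.70 on the TRIM33 arrays and 3.35, 3.77 and 3.75 on the WT arrays, a difference of -1.06 (SE 0.156; limma, adjusted p = 0.151) in the lowest part of the scale. Krtap5-2, Olfr1286, Olfr685, Olfr981, Pcdha2 and Pcdhgc3, genes of keratin-associated, odorant receptor and protocadherin families, differed by -1.08 to -0.64. As a whole the 1077 odorant receptor genes had a median difference of -0.02, close to that of all genes. Frrs1, a ferric-chelate reductase and the brightest of the 15 genes of smallest p, read 7.83, 7.79 and 7.93 against 8.73, 8.56 and 8.75. Its arrays did not overlap, and the difference was -0.83 (SE 0.126, adjusted p = 0.17). Capza1, an actin-capping subunit, read 7.75, 7.41 and 7.69 against 8.64, 8.70 and 8.09, a difference of -0.86 (SE 0.183, adjusted p = 0.682). Pink1, a kinase of mitochondrial quality control, differed by -0.69 (SE 0.139), Vdr, the vitamin D receptor, by -0.62 (SE 0.145), Sertad2, a transcriptional co-regulator, by -0.61 (SE 0.147) and Dglucy, a D-glutamate cyclase, by -0.63 (SE 0.148). Tmem26, a membrane protein, differed by -0.61 (SE 0.143), and none of these 5 passed (adjusted p of 0.578 for Pink1 and 0.741 for the others). Vegfa, the endothelial growth factor, read 5.40, 4.96 and 5.60 against 7.15, 5.75 and 5.61, a difference of -0.85 with WT replicate 1 far above the other WT arrays (SE 0.355, adjusted p = 0.962).

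**Figure D2:**
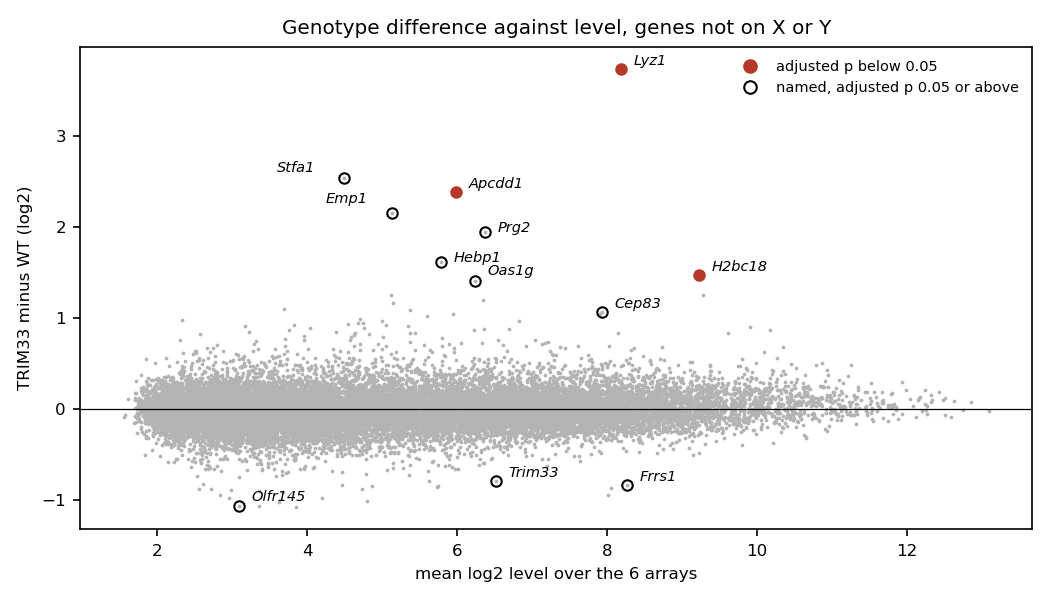
TRIM33 minus WT on the log2 scale (vertical axis) against the mean log2 level over the 6 arrays (horizontal axis), 1 point for each of 22200 genes. Filled red points are the 3 genes that passed the adjusted threshold, open circles are 9 other named genes, and the cloud of bright genes above a level of 10 lies slightly above 0.

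The other 6 arrays hold the same contrast in different samples, 3 against 3 with WT arrays of their own, and so give these genes a second measurement. Their values over all arrays were known when the genes were described, so the comparison is a description. Of the 15 genes of smallest p in the higher direction, 14 were also higher in the other arrays and 7 of them had an unadjusted p below 0.05 there (limma). These 7 were Apcdd1 at 3.61, Lyz1 at 3.39, Stfa1 at 2.94, H2bc18 at 2.07, Oas1g at 1.99, Cep83 at 1.77 and Atp1b3 at 0.78. Ccr1 was the exception, at -0.52. Of the 15 of smallest p in the lower direction, 9 were lower in the other arrays too, with an unadjusted p below 0.05 for Trim33 at -0.79, Capza1 at -0.76 and Dglucy at -0.60. Over all genes 51.3% had the same direction in both sets of arrays and 2.5% also an unadjusted p below 0.05. Among the 531 genes higher at an unadjusted p below 0.05 the shares were 55.0% and 8.47%, and among the 584 lower 56.8% and 4.28%.

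**Figure D3:**
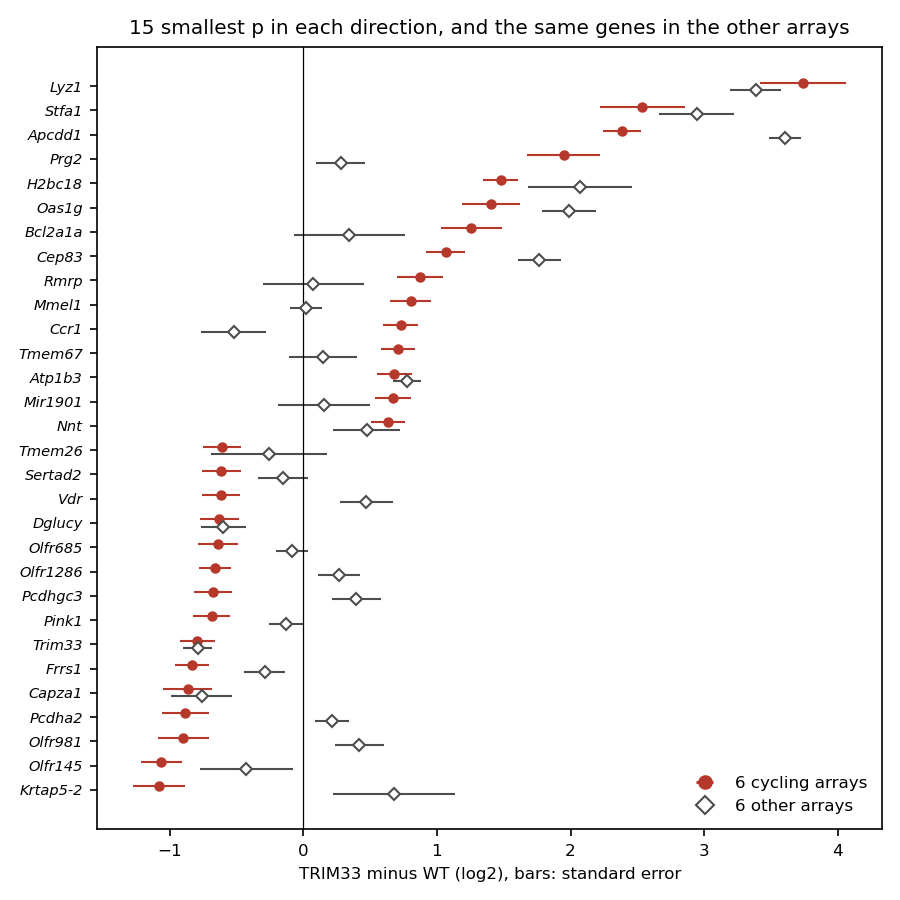
TRIM33 minus WT on the log2 scale with its standard error for the 15 genes of smallest p in each direction, in the 6 cycling arrays (red circles) and in the other 6 (open diamonds). The 7 genes from Lyz1 at 3.74 to Atp1b3 at 0.68 lie far from 0 in both, whereas Prg2, Rmrp, Mmel1 and Ccr1 do so in the cycling arrays and lie between -0.52 and 0.28 in the others.

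Whether a difference belonged to these arrays was tested by the difference between the 2 genotype contrasts. It passed for 1 gene of 22200, 0.0045% of those tested: Stfa2l1, another stefin, differed by 0.30 between genotypes here (SE 0.19) and by 3.65 in the other arrays (SE 0.284), a gap of -3.35 (limma, adjusted p = 0.0116). Here Stfa2l1 read 3.19, 3.44 and 2.81 on the TRIM33 arrays and 2.60, 3.11 and 2.83 on the WT arrays, low in all 6 with overlapping groups. That call was lost, leaving 0 genes, without TRIM33 replicate 1 or 3, WT replicate 2 or 3, or WT replicate 3 of the other arrays. The gap for Apcdd1, between 2.38 here and 3.61 in the other arrays, did not pass (unadjusted p = 1.22e-05, adjusted p = 0.143). Prg2 differed by 1.67 more here than in the other arrays, where it read 3.17 to 3.96 (unadjusted p = 0.0006, adjusted p = 0.961), and Ccr1 by 1.25 more (unadjusted p = 0.000846, adjusted p = 0.996). The array sets also differed in Xist, an RNA of female cells, at 9.01 to 10.2 here and 3.36 to 3.64 in the others, so precursor content, sex and any difference of preparation cannot be told apart between sets.

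Replication-dependent histone genes, expressed as DNA is copied, were among the gene groups farthest from the background. Of the 35 measured members of the histone clusters 28 were higher in TRIM33, with a median difference of 0.30 against -0.02 for all genes. At an unadjusted p below 0.05 there were 8 higher (22.9%) and 1 lower, and only H2bc18 passed the adjusted threshold. H2ac21 read 10.07, 10.23 and 9.90 on the TRIM33 arrays and 9.57, 9.48 and 9.51 on the WT arrays, and H4c12 read 8.67, 8.95 and 8.70 against 8.46, 7.97 and 8.15. Neither overlapped, with differences of 0.55 (SE 0.133) and 0.58 (SE 0.158) and adjusted p of 0.772 and 0.851 by limma. H2bc21 was lower, at 5.69, 5.83 and 5.38 against 6.29, 6.04 and 6.56 (-0.66, SE 0.173, adjusted p = 0.809). The linker histone genes had a median of 0.41 over 5, H2A genes 0.32 over 9, H2B genes 0.14 over 11, H3 genes 0.34 over 7 and H4 genes 0.18 over 3. This split by class was added after the data were seen.

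The histone difference was spread unevenly over the arrays. The mean level over the 35 genes was 7.46, 7.61 and 7.09 on the TRIM33 arrays and 7.12, 6.97 and 7.20 on the WT arrays, so TRIM33 replicate 3 lay within the WT range. WT replicate 2 was low for several members, with H3c10 at 7.75 against 9.97 and 9.85 on the other WT arrays and H2ac4 at 8.83 against 10.56 on both. The median was 0.17 without TRIM33 replicate 2, 0.22 without WT replicate 2 and 0.44 without TRIM33 replicate 3. In the other 6 arrays 6 of the 35 were higher and the median was -0.16. Histone genes of 1 class are close copies of each other, and the probes may not tell them apart.

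Other genes of the cell cycle lay near the background. Of 45 genes of DNA replication and S phase 29 were higher, with a median of 0.04, 1 at an unadjusted p below 0.05 and none past the adjusted threshold. Of 34 genes of mitosis 15 were higher, with a median of -0.01 and none below 0.05. Their mean levels overlapped between genotypes, at 7.94 to 8.10 against 7.95 to 8.00 for S phase and 8.62 to 8.70 against 8.65 to 8.68 for mitosis. Small nucleolar RNA genes, which like the replication-dependent histone transcripts lack a poly(A) tail, were higher more often: 77 of 103, with a median of 0.18. At an unadjusted p below 0.05 there were 17 of them higher (16.5%) and 1 lower. The 484 microRNA genes lay near the background, with 218 higher (45.0%) and a median of -0.03. These small RNA groups were added after the data were seen. Small nucleolar RNA genes averaged 5.45, 5.51 and 5.43 on the TRIM33 arrays and 5.38, 5.12 and 5.28 on the WT arrays. These means did not overlap and were lowest on WT replicate 2. Rpph1, the RNA of ribonuclease P, read 10.17, 10.70 and 10.19 against 9.60, 8.88 and 9.87 (0.91, SE 0.248, adjusted p = 0.851). In the other 6 arrays the small nucleolar RNA genes had a median of 0.03. The part of the RNA preparation in these values was not tested.

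Promoter sequences were searched for a motif known from each of the interferon-stimulated and histone groups, which part of each group held. The 250 bases upstream of the start are shown for Isg15 (chr4:156200819-156201068, minus strand) and Oas1g (chr5:120887614-120887863, minus strand), 2 interferon-stimulated genes with non-overlapping arrays, and for H2bc18 (chr3:96269450-96269699, plus strand), the histone gene that passed. They are RefSeq sequences of build GRCm38.p6, written 5′ to 3′ on the strand of the gene. Capitals mark the interferon-stimulated response element, searched as GAAA, any 2 bases and GAAA again, in the first and second, and the octamer of histone H2B promoters, searched as ATTTGCAT, in the third.
Isg15: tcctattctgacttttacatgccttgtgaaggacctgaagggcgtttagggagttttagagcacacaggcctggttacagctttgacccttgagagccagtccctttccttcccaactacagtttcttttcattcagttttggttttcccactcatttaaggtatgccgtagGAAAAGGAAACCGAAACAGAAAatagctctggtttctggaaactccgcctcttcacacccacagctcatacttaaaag
Oas1g: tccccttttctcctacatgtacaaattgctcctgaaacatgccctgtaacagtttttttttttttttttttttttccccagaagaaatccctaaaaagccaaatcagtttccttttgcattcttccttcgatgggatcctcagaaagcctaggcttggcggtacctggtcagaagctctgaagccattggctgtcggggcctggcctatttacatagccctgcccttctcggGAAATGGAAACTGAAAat
H2bc18: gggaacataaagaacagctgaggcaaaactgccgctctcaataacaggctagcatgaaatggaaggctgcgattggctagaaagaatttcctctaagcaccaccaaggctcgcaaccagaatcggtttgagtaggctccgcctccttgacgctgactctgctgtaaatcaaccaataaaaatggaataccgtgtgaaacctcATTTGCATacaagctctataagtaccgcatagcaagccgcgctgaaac

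Both strands were searched over the window of 250 bases before to 50 after the start, and matches may overlap. Isg15 held 3 overlapping matches from 78 bases before the start and Oas1g 2 from 18 bases before it. A match to the response element was found for 20 of the 39 interferon-stimulated genes with a promoter entry (51.3%) and for 3.99% of the 27025 genes in the table. The octamer was found for 5 of 9 H2B genes (55.6%), 10 of 31 clustered histone genes (32.3%) and 1.97% of all genes. A match is a description of the letters and not of binding.

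Interferon-stimulated genes were higher in TRIM33 as a group, without any member past the adjusted threshold. Of 52 measured members 43 were higher, with a median difference of 0.17, and 8 had an unadjusted p below 0.05 in the higher direction (15.4%) against 1 in the lower. The arrays did not overlap for 9 higher (17.3%) and 1 lower. Their mean level was 7.27, 7.50 and 7.47 on the TRIM33 arrays and 7.10, 7.31 and 7.19 on the WT arrays, so TRIM33 replicate 1 lay below WT replicate 2. In the other arrays 48 of the 52 were higher, with a median of 0.23, and 41 had the same direction in both. Isg15, a ubiquitin-like modifier, read 6.02, 6.48 and 6.23 against 5.32, 5.62 and 5.65, with no overlap (0.71, SE 0.16; limma, adjusted p = 0.716). Oas2, a partner of Oas1g in RNA sensing, read 6.69, 7.18 and 7.51 against 6.35, 6.24 and 6.16 (0.88, SE 0.194, adjusted p = 0.716). Zbp1, a sensor of left-handed nucleic acid, differed by 0.41 (SE 0.139) and Usp18, which removes Isg15 and dampens the receptor, by 0.40 (SE 0.17), both without overlap. Ifit1 differed by 0.39 and Oasl1 by 0.46, with groups that overlap. Oas1c, a dim relative of Oas1g, was lower, with a difference of -0.35 (SE 0.155). The Oas1 genes are close copies, and the probes may not tell all of them apart.

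The upstream part of the interferon pathway stayed near the background in its median. Over 21 ligands, receptors and signalling genes 11 were higher, with a median of 0.01. The arrays did not overlap for 3 lower (14.3%) and 1 higher (4.76%), against 5.84% and 4.41% of all genes. Ifnb1, the ligand, read 2.07 to 2.78 in the 6 arrays, in the dimmest part of the scale. Ifnar1 and Ifnar2, the receptor chains, differed by -0.10 and -0.14, and Jak1, the kinase they share, by -0.23. Stat2, a subunit of the induced transcription factor, read 7.16, 7.43 and 7.18 against 6.89, 6.71 and 7.06 (0.37, SE 0.146; limma, adjusted p = 0.962). Of the 12 measured p200 genes, which encode sensors of DNA, 11 were higher, with a median of 0.21 and 2 at an unadjusted p below 0.05. Ifi209 read 9.64, 9.87 and 9.59 against 9.18, 9.24 and 9.47, without overlap (0.40, SE 0.141, adjusted p = 0.962). Of 15 interferon-inducible GTPases, effectors against intracellular microbes, 13 were higher, with a median of 0.11, and Iigp1 differed by 0.45 (SE 0.17).

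**Figure D4:**
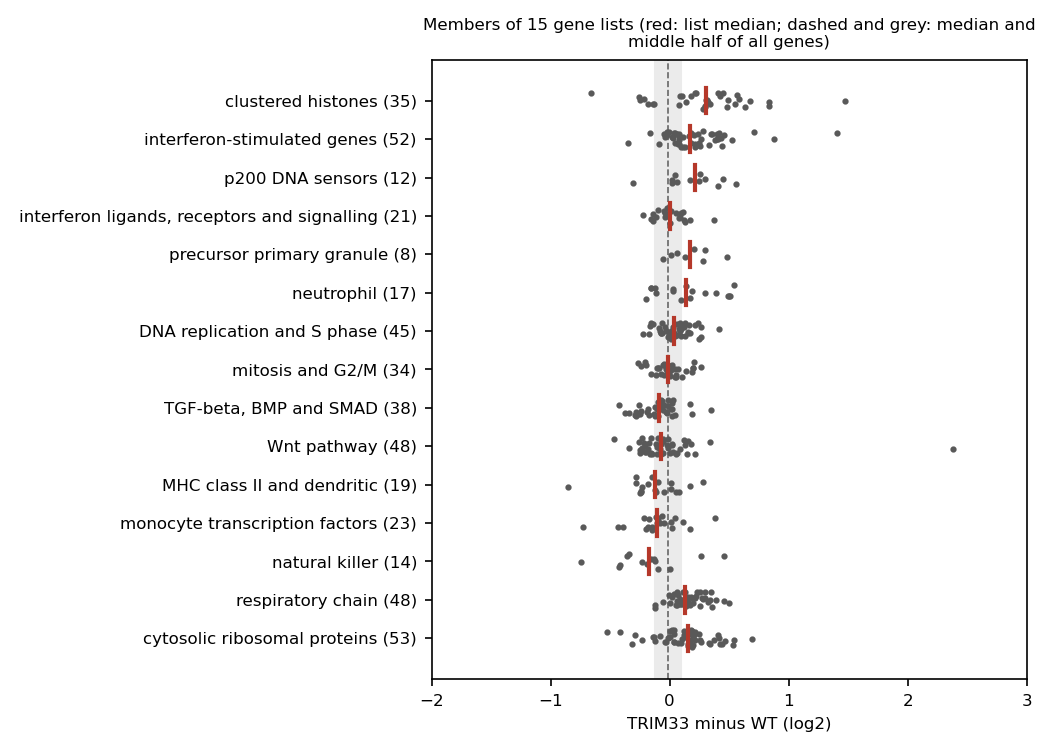
TRIM33 minus WT on the log2 scale (horizontal axis) for every measured member of 15 gene lists, with the number of members in brackets and the list median in red. The dashed line and the grey band give the median and the middle part of all 22200 genes. Histone, interferon-stimulated, p200, primary granule, neutrophil, respiratory chain and ribosomal protein medians lie between 0.13 and 0.30. Those of natural killer and MHC class II genes lie at -0.17 and -0.13.

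Genes of granules differed by small amounts in the higher direction. Of 8 genes of primary granules 7 were higher, with a median of 0.17, and their mean level was 9.17, 9.08 and 9.01 on the TRIM33 arrays against 8.98, 8.82 and 8.92 on the WT arrays. Prss57, a serine protease of these granules, read 5.80, 6.15 and 5.79 against 5.41, 5.38 and 5.49, without overlap (0.48, SE 0.141; limma, adjusted p = 0.86). The list median was 0.08 without TRIM33 replicate 1 and 0.10 after quantile normalization between the 6 arrays. Prtn3, proteinase 3, differed by 0.30 and Elane by 0.21, also without overlap. In bulk samples such as these, fewer cells of a type and less RNA per cell cannot be told apart. Among 17 neutrophil genes 12 were higher, with a median of 0.14, which was 0.06 without TRIM33 replicate 2 and 0.24 without WT replicate 1. After quantile normalization the neutrophil median was 0.17. S100a8 and S100a9, the calcium-binding alarmins, read 11.03, 11.33 and 10.99 against 10.55, 10.56 and 10.72, and 11.49, 11.66 and 11.34 against 10.92, 11.07 and 11.02. Their groups did not overlap, with differences of 0.51 (SE 0.141) and 0.49 (SE 0.134), and adjusted p of 0.851 for both. Ly6g, the defining neutrophil antigen, lay between 3.24 and 3.82.

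The list of eosinophil, basophil and mast cell genes was led by Prg2. Of its 14 measured members 6 were higher, with a median of -0.03, and 10 lay below the median gene. Prg3, the homologue of Prg2, read 3.74, 3.64 and 3.88 against 3.20, 3.44 and 3.05, near the low end of the scale but without overlap (0.52, SE 0.144; limma, adjusted p = 0.851). Epx, eosinophil peroxidase, lay between 3.87 and 4.39 with overlapping groups, and Mcpt8 and Cpa3, genes of basophils and mast cells, differed by -0.12 and -0.06. The mean of the list ran from 3.68 to 3.87 in TRIM33 and from 3.50 to 3.65 in WT, and the part of eosinophil cells in the Prg2 difference was not tested. Of 15 stefins and cystatins 13 were higher, with a median of 0.11. Stfa3 read 3.75, 3.98 and 3.15 against 2.57, 2.76 and 2.80 (0.92, SE 0.201, adjusted p = 0.708), while the bright members Cst3 and Cstb differed by 0.10 and 0.13. Stefin genes are close copies of each other. Lgmn, the lysosomal protease legumain, read 7.94, 7.89 and 7.74 against 7.43, 7.35 and 7.57 (0.41, SE 0.13, adjusted p = 0.891).

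Genes of the TGF-beta and BMP pathway tended to the lower side, as did other lists. Of the 55 lists 26 had a median below 0 and 28 above it. For example, 6 of 23 monocyte transcription factors were higher (median -0.11), and 9 of 32 cytokines and chemokines (median -0.10). Of the 38 measured members of the TGF-beta and BMP list 9 were higher, and the median was -0.09. The arrays did not overlap for 6 lower (15.8%) and 2 higher (5.26%), against 5.84% and 4.41% of all genes. At an unadjusted p below 0.05 there were 2 lower and 1 higher, and none passed the adjusted threshold. Bmpr2, a type II BMP receptor, read 7.87, 7.92 and 8.23 on the TRIM33 arrays and 8.46, 8.58 and 8.25 on the WT arrays (-0.42, SE 0.15; limma, adjusted p = 0.962), separated by a narrow margin. Acvr1, a type I receptor, differed by -0.34 (SE 0.134) and Bambi, a decoy receptor, by 0.35 (SE 0.134). The signalling proteins differed little, Smad2 by -0.10, Smad4 by -0.05 and Smad3 by 0.19 with overlapping groups. The feedback genes Smad7, Ski and Skil differed by -0.28, -0.24 and 0.05, and the target Id1 by 0.01. In the other arrays the list had a median of -0.05, and 20 of 38 had the same direction.

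Other genes of the Wnt pathway of Apcdd1 also tended to the lower side. Of 48 measured members 34 were lower and 14 higher, Apcdd1 among them, with a median of -0.07, and 2 higher and 1 lower had an unadjusted p below 0.05. Notum, which inactivates Wnt ligands, differed by -0.47 (SE 0.158) and Sfrp2, a secreted antagonist, by 0.34 (SE 0.143), both below 4 on the log2 scale in every array. The targets Axin2, Myc and Lef1 differed by -0.10, 0.21 and 0.03 and Ctnnb1, beta-catenin, by 0.00, all with overlapping groups. None of these 6 passed the adjusted threshold. The list had a median of 0.00 in the other arrays, where 25 of 48 were higher and 21 kept their direction.

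Genes of monocyte identity and maturation lay close to the background or slightly below it. Of 15 genes of Ly6C-high monocytes 9 were higher, with a median of 0.07, and none had an unadjusted p below 0.05. Of 19 Ly6C-low genes 6 were higher (median -0.13), as were 6 of 19 genes of MHC class II and dendritic cells (median -0.13). The first median was -0.06 without WT replicate 2, and the second -0.06 without TRIM33 replicate 3 and -0.21 without WT replicate 1. Apoc2, on the Ly6C-low list, read 10.27, 10.29 and 10.66 against 10.14, 9.51 and 9.68, higher without overlap (0.63, SE 0.187; limma, adjusted p = 0.881). It was the only gene of that list with an unadjusted p below 0.05 in either direction. Cd209a, a lectin of monocytes on the way to dendritic cells, read 5.90, 5.45 and 4.55 against 5.82, 6.73 and 5.91, a difference of -0.86 with overlapping groups (SE 0.334; limma, adjusted p = 0.962). H2-Aa, H2-Ab1 and H2-Eb1, which encode class II chains, differed by -0.23, -0.18 and -0.28. Csf1r, which encodes the sorted antigen CD115, read 9.73, 9.79 and 9.96 against 10.12, 9.99 and 10.08, lower without overlap (-0.23, SE 0.128, adjusted p = 0.962). Of 23 transcription factors of monocytes 6 were higher, with a median of -0.11. Irf4, a factor of dendritic and alternatively activated cells, read 4.89, 4.65 and 5.43 against 5.78, 5.69 and 5.67 (-0.72, SE 0.19, adjusted p = 0.809). Cebpe, a factor of granulocyte maturation, read 7.16, 7.27 and 7.24 against 6.97, 6.86 and 6.71 (0.38, SE 0.128, adjusted p = 0.939). Klf4 and Irf8, which specify monocytes, differed by -0.43 and -0.15 with overlapping groups.

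Most markers of lymphocytes and platelets were dim, some were bright, and natural killer genes tended to the lower side. Of 15 T cell genes 13 lay below the median gene, and their mean was 3.63 to 3.69 in TRIM33 and 3.69 to 3.79 in WT, narrowly without overlap. Cd3e, the defining chain, read 3.14, 2.94 and 3.01 against 3.13, 3.72 and 3.73 (-0.50, SE 0.176; limma, adjusted p = 0.962), with overlapping groups, and Cd28, a costimulatory receptor, read 5.61 to 6.47 in the 6 arrays. Of 14 natural killer genes 11 were lower, with a median of -0.17 and 9 below the median gene, and their mean was 3.91 to 4.10 against 4.04 to 4.30. Klrd1, a receptor of natural killer cells, read 3.31, 3.13 and 3.20 against 3.73, 4.40 and 3.73 (-0.74, SE 0.188; limma, adjusted p = 0.809), and Nkg7, a granule protein, differed by 0.46 (SE 0.137). Of 13 B cell genes 8 lay below the median gene, and their mean was 4.54 to 4.57 against 4.51 to 4.63. Cd79a, a chain of the B cell receptor, read 2.88 to 3.13 in the 6 arrays, its partner Cd79b 7.56 to 8.26 and Ighm, the heavy chain of IgM, 10.09 to 10.39. Ighm was lower in TRIM33 without overlap (-0.16, SE 0.123). Of 15 platelet genes 10 lay below the median gene, with a mean of 4.56 to 4.70 against 4.64 to 4.68, and Pf4, a platelet chemokine, read 3.86 to 4.14, with F5, a coagulation factor, at 7.02 to 7.39 and Itgb3, an integrin, at 6.01 to 6.43. The part of such cells in the genotype differences was not tested.

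Some receptors and survival genes differed without overlap, as did 10.3% of all genes in either direction. Trem2, a lipid receptor of phagocytes, read 8.28, 8.49 and 8.48 against 7.92, 8.01 and 7.91 (0.47, SE 0.127; limma, adjusted p = 0.851), and Mertk, which binds dying cells, 4.15, 3.71 and 4.14 against 3.25, 3.64 and 3.49 (0.55, SE 0.166, adjusted p = 0.891). Both belong to a list of 28 genes of dead cell uptake and resolution, of which 14 were higher, with a median of 0.01. Of 12 Fc and complement receptors 10 were higher, with a median of 0.11. Fcgr4 read 5.58, 5.29 and 6.86 against 4.61, 5.25 and 4.62, with TRIM33 replicate 3 far above the other TRIM33 arrays. Tlr4, the endotoxin receptor, differed by 0.40 (SE 0.139), Cmklr1, the chemerin receptor, by 0.94 (SE 0.256) and Cd180, a relative of Tlr4, by -0.39 (SE 0.139), all without overlap. Bcl2a1b, a copy of Bcl2a1a, differed by 0.87 (SE 0.243), and among 19 members of the BCL2 family 8 were higher, with a median of -0.01. Il6st, the shared receptor chain of the interleukin-6 family, read 9.06, 8.90 and 9.02 against 9.41, 9.44 and 9.57 (-0.48, SE 0.125, adjusted p = 0.809). Tnf, the inflammatory cytokine, read 7.39, 7.21 and 7.05 against 7.77, 7.78 and 7.48 (-0.46, SE 0.147, adjusted p = 0.891). None of the genes in this paragraph passed the adjusted threshold, and the margins between groups were narrow for Mertk and Fcgr4.

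**Figure D5:**
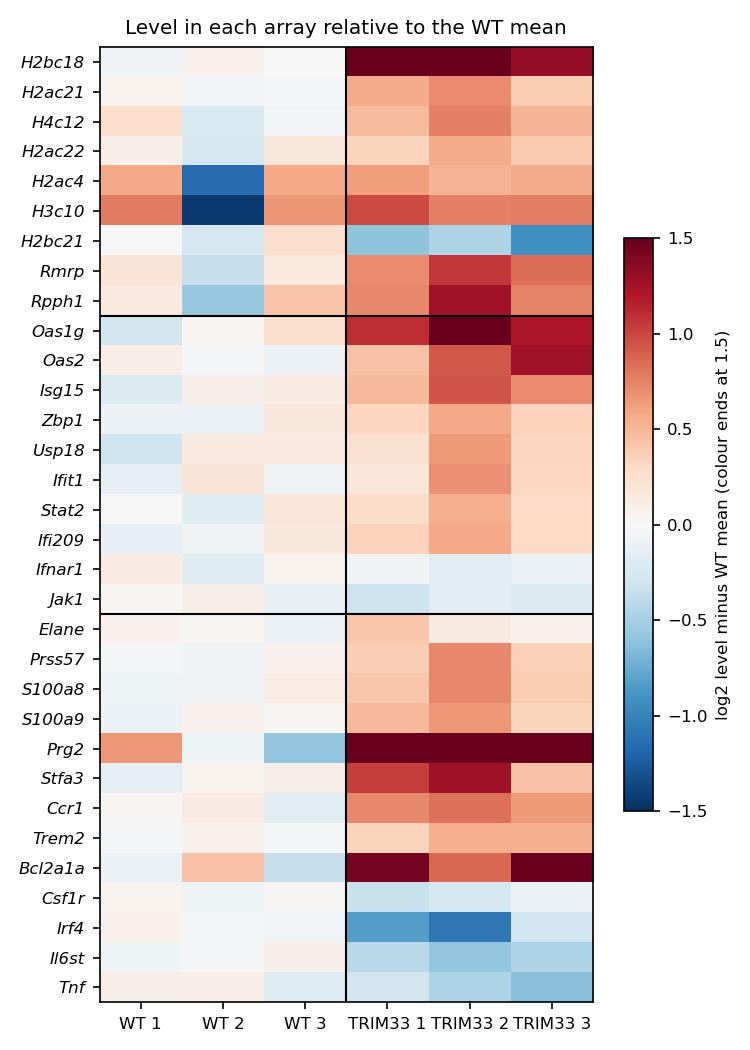
Log2 level minus the mean of the 3 WT arrays, as colour that ends at 1.5, for genes of histones and small RNAs, of interferon and of myeloid function (rows) in each array (columns). The TRIM33 columns are red for H2bc18, Oas1g and Prg2, blue for Irf4 and Il6st, and WT replicate 2 is blue for H2ac4 and H3c10, at 8.83 and 7.75.

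Genes of the respiratory chain and of ribosomes were slightly higher, as were bright genes in general. Of 48 respiratory chain genes 44 were higher, with a median of 0.13, and the arrays did not overlap for 12 higher (25.0%) and 0 lower. Without TRIM33 replicate 3 the median was 0.20. Uqcr10 and Uqcrq, subunits of complex III, read 10.23, 10.34 and 10.16 against 9.65, 9.64 and 9.93, and 10.80, 10.78 and 10.66 against 10.35, 10.04 and 10.50. Neither passed, with differences of 0.50 (SE 0.137) and 0.45 (SE 0.148) and adjusted p of 0.851 and 0.909 by limma. Of 53 ribosomal protein genes 40 were higher, with a median of 0.16, from Rps3a1 at -0.52 to Rpl23a at 0.69. Their mean was 7.51, 7.60 and 7.31 against 7.25, 7.53 and 7.28, with overlapping groups, and the median was 0.06 without TRIM33 replicate 2. Among the 452 genes with a mean level of 10 or more 67.7% were higher, the median was 0.06 and the arrays did not overlap for 15.5% higher and 2.88% lower. After quantile normalization between the 6 arrays that median was 0.00, with 50.2% higher, while the respiratory chain and ribosomal medians were 0.09 and 0.11. Histone and interferon-stimulated medians were 0.29 and 0.16 in that setting.

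Genes beside the targeted and called genes were read in the order of the tested genes on the chromosome. Of the 100 genes nearest to Trim33 on chromosome 3, 8 had an unadjusted p below 0.05 (8.0%), against 5.02% of all genes, 6 of them lower. Ptpn22, a phosphatase of immune receptors, read 8.28, 8.20 and 8.09 against 8.58, 8.70 and 8.71 (-0.48, SE 0.125; limma, adjusted p = 0.809), and Capza1 lies 20 tested genes away. Of the 20 genes nearest to H2bc18, on the same chromosome, 6 had such a p (30.0%), with 3 histone genes among them. Fcgr1, the next tested gene, read 9.02, 9.75 and 9.38 against 8.62, 9.19 and 8.81 (0.51, SE 0.208, adjusted p = 0.962), with overlapping groups. Around Lyz1 1 of 100 genes and around Apcdd1 4 of 100 had such a p. Chromosome 3 held the largest share of the 19 chromosomes, 82 of 1088 genes or 7.54%.

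On chromosome 6 TRIM33 replicate 1 stood apart. Emp1, an epithelial membrane protein, read 3.47, 7.22 and 7.93 on the TRIM33 arrays and 3.79, 4.31 and 4.04 on the WT arrays, and Hebp1, a heme-binding protein 5 tested genes away, 5.12, 7.70 and 6.94 against 4.86, 5.22 and 4.82. TRIM33 replicate 1 lay below the WT arrays for Emp1 and within their range for Hebp1, and neither gene passed with all 6 arrays (limma, adjusted p of 0.962 and 0.891). Without that array Emp1 differed by 3.53 (adjusted p = 0.00228) and Hebp1 by 2.35 (adjusted p = 0.0295). In the other 6 arrays Emp1 differed by 4.25 and Hebp1 by 2.61. Clec2i, a lectin gene on the same chromosome, read 8.19, 7.14 and 7.27 against 8.41, 8.49 and 8.54, again with TRIM33 replicate 1 nearest to WT. Without that array Clec2i differed by -1.28 (limma, adjusted p = 0.0382), but its difference in the other 6 arrays was -0.14 (SE 0.191).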

How the data were processed

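Of 12 single-colour expression arrays, 6 were compared. The deposited values are log2 expression values made by the authors, 1 per gene-level feature. RMA and Partek are the named tools, per the submitters' processing notes. Versions, chip, build and batch handling were not given in the sources used here. RMA equalises the arrays' distributions, so a shift common to most genes may be lost, and it compresses differences of dim genes. Arrays carry no counting depth, and their number limits the precision.

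Of 24479 features 23281 carried 1 gene symbol, 0 several and 1198 none. For 2 symbols with more than 1 feature the brighter was kept, leaving 23279 genes, fitted by limma 3.58.1 (R 4.3.3; lmFit, eBayes) and adjusted over all. The 955 genes on X or Y and 124 without a chromosome are not printed, apart from 1 check of the array sets, and 0 genes were filtered out for low values. Members, arrays and lists were chosen with earlier results of these data known. Of 1280 listed genes 1117 were measured; the rest, Lyz2 among them, are not analysed here. Lists got counts and medians only. Named were Trim33 and its paralogs, genes past the threshold and the 15 smallest p in each direction. The 10 largest differences without overlap in each direction were added. So were some of the 3 smallest p of the lists described and some markers, predicted genes aside. Not every gene of the list and marker rules is printed. Other list members, Clec2i's array values and the neighbours were picked after their values were seen.

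The test was also run on simulated data with 200 changed genes and spreads drawn from the fit to these arrays. It recovered 4% of changes of 0.5 on the log2 scale, 76% of changes of 1 and 100% of changes of 2, with 5 false calls. Alternatives covered normalization, filters, variance models, array weights, the shared spread, the threshold and each array left out. RefSeq promoters (GRCm38.p6) were matched by symbol, and that table's gene order gave neighbours. Python 3.11.15 and matplotlib 3.10.9 drew the figures.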

Additional observations from a re-analysis of the deposited data

Results flagged for a closer look

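The genotype difference of Stfa2l1 was -3.35 on the log2 scale when that of the other 6 arrays was subtracted from that of the cycling arrays (limma, Benjamini-Hochberg adjusted p = 0.0116). It stands out because the same contrast gave 0.30 in 1 set of arrays and 3.65 in the other, and the difference itself was tested.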

How the results depend on the processing

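With 3 genes higher in the main setting, 0 were called without moderation of the spread and 6 with the spread shared over all 12 arrays (A930005H10Rik, Apcdd1, Cep83, Lyz1, Prg2 and Stfa1). Leaving out 1 array gave 3 to 7, the 7 without TRIM33 replicate 1, where Emp1, Hebp1, Stfa1 and the predicted Gm3428 were added. The count of genes lower was 1 with the shared spread, Trim33 at -0.79, and 0 to 1 with 1 array left out, the 1 being Clec2i without TRIM33 replicate 1. Quantile normalization, median centring, an intensity trend, robust variance, array weights, leaving out X and Y and adding unnamed features each called the same 3 genes. Apcdd1 and Lyz1 kept their call in 16 of 17 alternatives and H2bc18 in 15. The difference between array sets called 0 genes when only genes above the median level were tested, which leaves out Stfa2l1, and 0 to 1 with 1 array left out. It was 0 without TRIM33 replicate 1 or 3, WT replicate 2 or 3, or WT replicate 3 of the other set; leaving out arrays of the other set was added after the data were seen. No paired analysis was possible because the titles of the 6 cycling arrays share no numbers between genotypes. In the other set 2 titles of each genotype do, with deviations that correlated at 0.14 and 0.22, too few pairs to show pairing. With these numbers as a replicate block, also added after the data were seen, the difference between array sets called 1 gene, Stfa2l1, and the same arrays without the block called it too. The number of arrays limits the precision, and dim genes lie close to background.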
